A study of Mus musculus with 5 samples.

Results

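The small leucine-rich proteoglycans (SLRPs) are secreted matrix proteins built around a horseshoe of leucine-rich repeats. The 10 SLRP genes described here are Bgn, Dcn, Lum, Fmod, Ogn, Aspn, Prelp, Omd, Podn and Kera. They were found by gene name among the 54636 rows of a gene count table of mouse cancer-associated fibroblasts (CAFs), and all 10 had a row. The table holds 5 RNA sequencing libraries, 1 per condition, so a difference between libraries has no replicate check. Myosin IIA KO CAFs carry Cre (genotype MyosinIIA KO Cre+) and grew out of a subcutaneous tumor in a mouse with αSMA-CreERT2, the R26mT/mG reporter and floxed Myh9, which encodes the heavy chain of myosin IIA. There the αSMA promoter drives the inducible Cre, so that Myh9 is lost only where the promoter is active. Cre- control CAFs came from such a mouse without Cre (MyosinIIA KO Cre-), and per the labels both cultures received 2 µM tamoxifen. Per the paper, tumors in such mice were raised from tumor organoids placed in the interscapular fat pad, after irradiation and bone marrow transplantation. The Fn1 siRNA PDX CAFs received siRNA against Fn1, the fibronectin gene, the control siRNA PDX CAFs a non-targeting siRNA, and the untreated PDX CAFs no transfection. These 3 cultures had a wild-type genotype and grew out of patient-derived xenografts (PDX) of a rectal tumor in Nude mice. All lines were immortalized with SV40 large T-antigen, and each condition is a single culture.

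SLRPs bind fibril-forming collagens, set the width and spacing of fibrils, and hold growth factors such as TGF-β in the matrix. They fall into classes by sequence. In class I, biglycan and decorin (Bgn, Dcn) carry chondroitin or dermatan sulfate chains, and asporin (Aspn) has a run of aspartates in their place. The class II proteins lumican, fibromodulin, keratocan and osteomodulin (Lum, Fmod, Kera, Omd) can carry keratan sulfate, and PRELP has a basic end that binds heparan sulfate. Osteoglycin (Ogn) is of class III and podocan (Podn) of class V. In tumors most of these genes are transcribed by stromal fibroblasts.

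The libraries held 22961620 to 26596351 counts, and 3 counts, used as the floor for a count of 0, were 0.108 to 0.135 CPM. CPM are counts relative to the size of a library, here after scaling by the trimmed mean of M values (TMM). Intervals in brackets are exact 95% intervals of counting error alone, and say nothing of how much separate cultures vary. The targeted genes went with the labels, since Myh9 had 11763 counts in myosin IIA KO CAFs against 63219 in Cre- control CAFs, and Fn1 had 28460 counts in Fn1 siRNA PDX CAFs against 124202 in control siRNA PDX CAFs. Of 8 fibroblast markers, 8 were at 1 CPM or more in myosin IIA KO and Cre- control CAFs and 7 in each PDX library, where Fap was below it. Of 6 immune markers 1 was at 1 CPM or more in each library, Cd68 with 32 to 75 counts, while Ptprc and Cd3e had no count in any, and no marker of 6 epithelial ones reached 1 CPM. Fewer cells of a type and less RNA per cell cannot be told apart in bulk RNA.

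SLRP genes took 0.374% to 0.916% of all counts, and Bgn had the highest level of the family in every library. Summed over the 10 genes, the level was 8727 CPM in myosin IIA KO CAFs, 7541 CPM in Cre- control CAFs, 4469 CPM in Fn1 siRNA PDX CAFs, 4203 CPM in control siRNA PDX CAFs and 3633 CPM in untreated PDX CAFs. In myosin IIA KO and in Cre- control CAFs 9 of the 10 genes were at 1 CPM or more, and 7 of 10 in each PDX library. Kera, a gene of the corneal stroma, was the only one below 1 CPM in all 5 libraries, with 0 counts in myosin IIA KO CAFs, 3 counts in Cre- control CAFs and 0 counts in each PDX library. No fold is given for it.

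**Figure D1:**
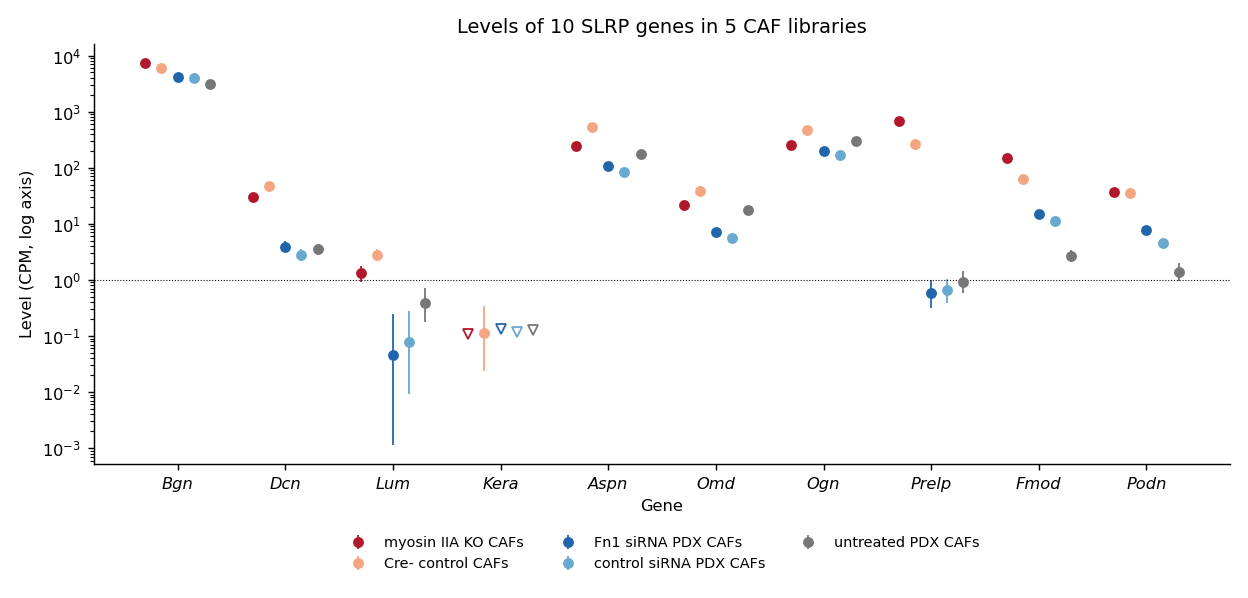
Levels of the 10 SLRP genes (x axis) in 5 libraries, in CPM on a log axis. Each point is 1 library, vertical lines are exact Poisson 95% intervals, open triangles mark the level of 3 counts where none was counted, and the dotted line is at 1 CPM. Bgn sat between 3132 and 7307 CPM, and Prelp was at 681 and 262 CPM in myosin IIA KO and Cre- control CAFs and below 1 CPM in all 3 PDX libraries.

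Levels of different genes were compared per kilobase of gene length. On that scale Bgn made up 72.2% of the summed SLRP level in myosin IIA KO CAFs, 65.1% in Cre- control CAFs, 83.5% in Fn1 siRNA PDX CAFs, 85.4% in control siRNA PDX CAFs and 71.9% in untreated PDX CAFs. What stood behind Bgn differed between the cultures. The next level was that of Prelp in myosin IIA KO CAFs, with 11.4% of the sum, that of Aspn in Cre- control CAFs, with 15.0%, and that of Ogn in the PDX libraries, with 9.57% under Fn1 siRNA, 8.86% under control siRNA and 16.2% in untreated cells. Dcn, whose protein is the best studied of the family, had 0.315% of the sum in myosin IIA KO CAFs, 0.536% in Cre- control CAFs and less than 0.1% in each PDX library. The level of Bgn per kilobase was 229 times that of Dcn in myosin IIA KO CAFs, 121 times in Cre- control CAFs, 1008 times under Fn1 siRNA, 1356 times under control siRNA and 853 times in untreated PDX CAFs.

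**Figure D2:**
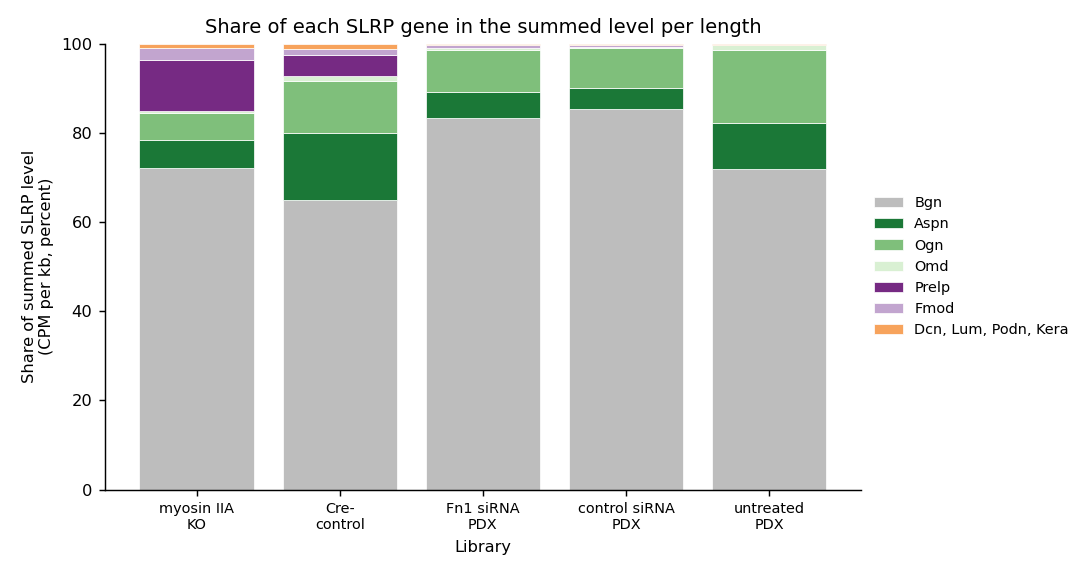
Share of each gene in the summed SLRP level (y axis, percent of CPM per kilobase) in 5 libraries (x axis), as stacked bars. Bgn takes the largest part of each bar, and the Prelp part is visible in myosin IIA KO CAFs (11.4%) and Cre- control CAFs (4.73%) but not in the PDX libraries.

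The myosin IIA KO and Cre- control cultures differed in both directions within the family. Relative to Cre- control CAFs, myosin IIA KO CAFs had over 2-fold more Prelp and Fmod, over 2-fold less Aspn and Lum, and less Ogn, Omd and Dcn by under 2-fold. In control siRNA over untreated PDX CAFs, where Myh9 was not targeted, Fmod was also higher, with a log2 ratio of 2.05. Aspn (-1.07), Ogn (-0.80) and Omd (-1.67) were also lower there. The share of all genes with the same direction in both comparisons was not counted, so this match has no baseline. Prelp and Lum were too low there to be compared. The comparison of myosin IIA KO with Cre- control CAFs asks what a culture with less Myh9 RNA, though not without it, transcribes differently. Of the 9 SLRP genes at 1 CPM or more in either library, 4 were past 2-fold, against 5.02% of all 13360 genes compared, of which 3.29% were higher and 1.74% lower. The median log2 ratio of the 9 genes was -0.65, beside -0.0064 over all genes, and it was -0.29 over the genes at 10 CPM or more. The intervals of 8 of the 9 lay wholly on one side of 0. The share of all genes with such an interval was not counted, so this number has no baseline.

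Prelp encodes a protein that links basement membranes to collagen. It had 18831 counts in myosin IIA KO CAFs (681 CPM) and 6851 counts in Cre- control CAFs (262 CPM), a log2 ratio of 1.38 (1.34 to 1.42). In the PDX cultures it was low, with 13 counts under Fn1 siRNA, 17 counts under control siRNA and 22 counts in untreated cells. Its antisense neighbour Gm15851 shares 350 bases with Prelp exons, 9.68% of their length, and had 6 counts in myosin IIA KO CAFs and 1 count in Cre- control CAFs.

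Fmod, whose protein fibromodulin organizes collagen fibrils and binds TGF-β, went the same way. Its level was 150 CPM in myosin IIA KO CAFs, 62.8 CPM in Cre- control CAFs, 14.9 CPM in Fn1 siRNA PDX CAFs, 11.1 CPM in control siRNA PDX CAFs and 2.67 CPM in untreated PDX CAFs. The log2 ratio of myosin IIA KO over Cre- control was 1.26 (1.18 to 1.34). The level of Prelp per kilobase stood in a similar ratio to that of Fmod in both cultures, 4.14 in myosin IIA KO CAFs and 3.82 in Cre- control CAFs, and was below that of Fmod in the PDX libraries, at 0.036 to 0.319.

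Aspn, Omd and Ogn were all lower in myosin IIA KO CAFs. Aspn, whose protein binds collagen and restrains TGF-β in cartilage, was at 246 CPM in myosin IIA KO CAFs and 541.5 CPM in Cre- control CAFs, a log2 ratio of -1.14 (-1.18 to -1.10). Ogn, whose product is also called mimecan, was at 252.5 CPM in myosin IIA KO CAFs and 462 CPM in Cre- control CAFs, a log2 ratio of -0.87 (-0.91 to -0.83). Omd, best known from bone, was at 21.7 CPM in myosin IIA KO CAFs and 38.3 CPM in Cre- control CAFs, with -0.82 (-0.97 to -0.67). The order of Prelp and Ogn thus differed between the cultures, since Prelp per kilobase was 1.91 times Ogn in myosin IIA KO CAFs and 0.403 times Ogn in Cre- control CAFs.

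Dcn and Lum were lower as well, at lower levels. Dcn, whose protein decorin binds collagen and several receptor tyrosine kinases, was at 30.5 CPM in myosin IIA KO CAFs and 48.0 CPM in Cre- control CAFs, a log2 ratio of -0.65 (-0.78 to -0.53). Lum, whose protein lumican competes with fibromodulin for collagen, had 36 counts in myosin IIA KO CAFs and 73 counts in Cre- control CAFs. Its log2 ratio of -1.09 (-1.72 to -0.51) had an interval that reached well inside 2-fold.

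Bgn and Podn differed little. Bgn, whose protein biglycan binds collagen and Toll-like receptors, was at 7307 CPM in myosin IIA KO CAFs and 6089 CPM in Cre- control CAFs, a log2 ratio of 0.26 (0.25 to 0.27). By CPM, which does not account for gene length, it ranked 4 among all genes in myosin IIA KO CAFs and 8 in Cre- control CAFs. Podn, whose protein podocan has been tied to vascular smooth muscle growth, was at 36.9 CPM in myosin IIA KO CAFs and 34.8 CPM in Cre- control CAFs, and its log2 ratio of 0.08 had an interval that included 0 (-0.05 to 0.21). Since Bgn dominates the family, the summed level per length was 1659 CPM per kilobase in myosin IIA KO CAFs and 1534 CPM per kilobase in Cre- control CAFs with Bgn. Without it the order turned, with 461 CPM per kilobase in myosin IIA KO CAFs and 536 CPM per kilobase in Cre- control CAFs.

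**Figure D3:**
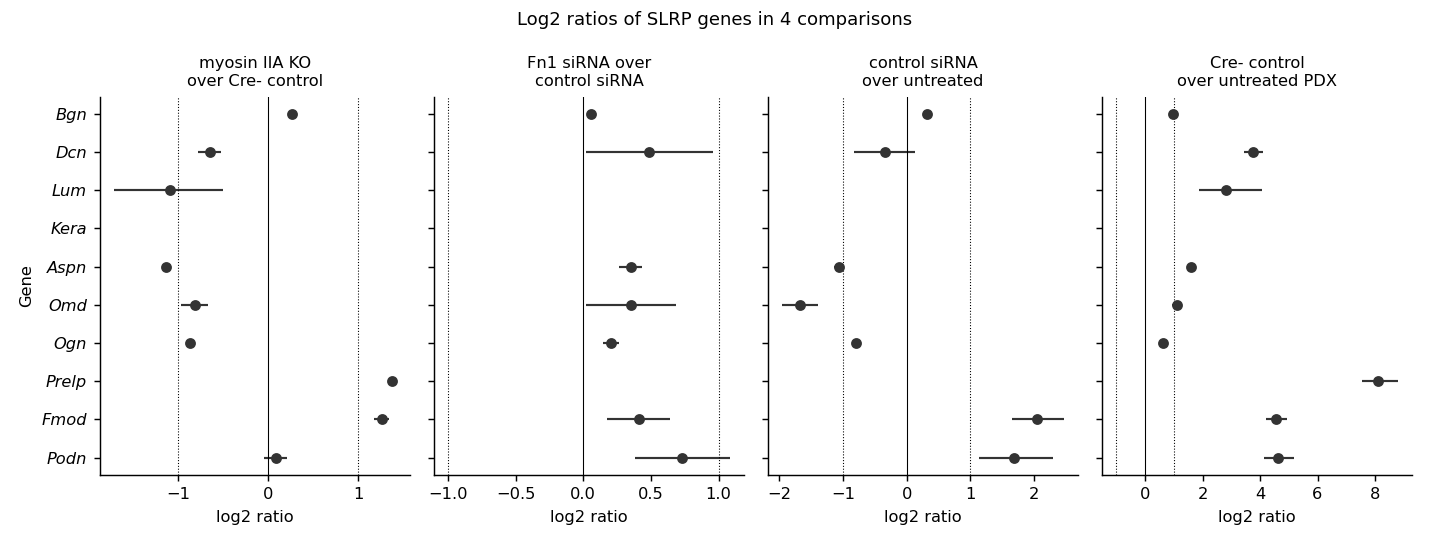
Log2 ratios of the SLRP genes (x axis, a separate scale in each panel) in 4 comparisons, with exact 95% intervals of counting error as horizontal lines. Dotted lines mark 2-fold, and genes below 1 CPM in both libraries have no point. In myosin IIA KO over Cre- control, Prelp (1.38) and Fmod (1.26) lie right of the dotted line and Aspn (-1.14) and Lum (-1.09) left of it.

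The SLRP genes of a chromosomal cluster could be compared with their neighbours. Prelp and Fmod share a stretch of 138 kb on chromosome 1, Dcn, Lum and Kera one of 134 kb on chromosome 10, and Aspn, Omd and Ogn one of 80.1 kb on chromosome 13. Podn on chromosome 4 and Bgn on chromosome X stand alone. In mm10 coordinates of the count table, Prelp (ENSMUSG00000041577) lies at chr1:133910304-133921414 on the minus strand and Fmod (ENSMUSG00000041559) at chr1:134037254-134048277 on the plus strand. Aspn (ENSMUSG00000021388) lies at chr13:49544443-49567565, Omd (ENSMUSG00000048368) at chr13:49582462-49592822 and Ogn (ENSMUSG00000021390) at chr13:49608046-49624501, all on the plus strand. All 10 are annotated as protein-coding genes, and counts are over whole genes. In myosin IIA KO over Cre- control, both genes on chromosome 1 were higher, both measured genes on chromosome 10 were lower, and all 3 on chromosome 13 were lower. Summed levels were 831 CPM in myosin IIA KO CAFs and 325 CPM in Cre- control CAFs for the chromosome 1 pair. For the 3 genes on chromosome 13 they were 520 CPM in myosin IIA KO CAFs and 1042 CPM in Cre- control CAFs. Cenpp, a centromere protein gene that spans these 3 genes on the opposite strand and shares at most 7 exon bases with them, had a log2 ratio of -0.43 (-0.69 to -0.17). Ecm2, an SLRP-like gene of class I that lies next to Aspn, had 440 counts in myosin IIA KO CAFs and 441 counts in Cre- control CAFs, a log2 ratio of -0.08 (-0.28 to 0.11). Optc, an SLRP-like gene near Prelp and Fmod, went against this pair, with 21 counts in myosin IIA KO CAFs and 39 counts in Cre- control CAFs, a log2 ratio of -0.96 (-1.81 to -0.17).

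**Figure D4:**
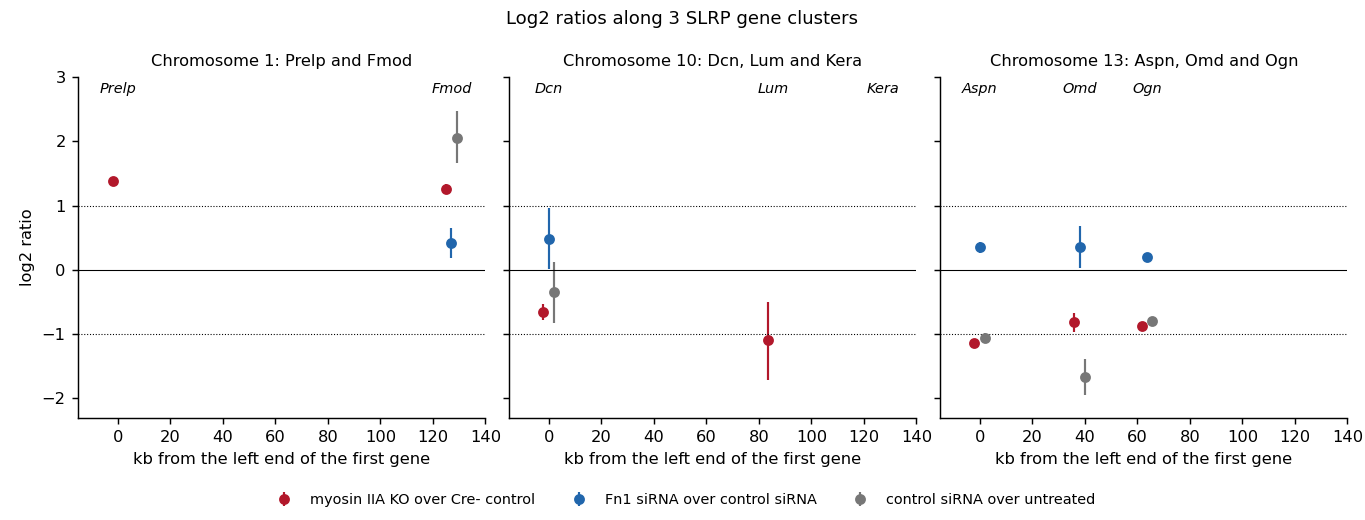
Log2 ratios (y axis) of neighbouring SLRP genes in 3 chromosomal clusters, by distance in kilobases from the left end of the first gene (x axis; points of the same gene are set slightly apart). Colours mark 3 comparisons, vertical lines are 95% counting intervals and dotted lines mark 2-fold. In myosin IIA KO over Cre- control, the chromosome 1 genes lie above 0 and the chromosome 13 genes below 0.

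The sequences around the start sites of 5 of these genes and of Bgn are shown because the members of a cluster differed in the same direction in myosin IIA KO over Cre- control. Each window of 300 bases runs from 250 bases before to 50 bases after the RefSeq start site (GRCm38.p6, the assembly also called mm10), read 5′ to 3′ on the strand of the gene. Of the 10 genes, 8 had a window in the RefSeq table, and Dcn and Lum had none. Capitals mark matches, on either strand, to the TATA motif spelled TATAAA, the AP-1 motif spelled TGANTCA, the TEAD motif spelled GGAATG, the GC box spelled GGGCGG, or the CArG box of serum response factor, and a window without capitals holds none of them.
Prelp, chr1:133921352-133921651, minus strand: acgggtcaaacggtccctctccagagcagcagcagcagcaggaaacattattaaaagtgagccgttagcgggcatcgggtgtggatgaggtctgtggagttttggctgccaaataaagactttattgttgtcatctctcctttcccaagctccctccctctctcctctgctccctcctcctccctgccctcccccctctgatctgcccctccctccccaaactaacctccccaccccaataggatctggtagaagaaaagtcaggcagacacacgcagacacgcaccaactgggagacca
Fmod, chr1:134037004-134037303, plus strand: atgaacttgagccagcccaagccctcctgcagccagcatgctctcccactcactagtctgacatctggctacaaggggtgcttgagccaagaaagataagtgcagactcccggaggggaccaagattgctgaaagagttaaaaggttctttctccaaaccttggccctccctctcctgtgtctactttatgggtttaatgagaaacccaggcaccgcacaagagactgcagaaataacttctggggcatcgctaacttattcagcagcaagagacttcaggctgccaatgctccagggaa
Aspn, chr13:49544193-49544492, plus strand: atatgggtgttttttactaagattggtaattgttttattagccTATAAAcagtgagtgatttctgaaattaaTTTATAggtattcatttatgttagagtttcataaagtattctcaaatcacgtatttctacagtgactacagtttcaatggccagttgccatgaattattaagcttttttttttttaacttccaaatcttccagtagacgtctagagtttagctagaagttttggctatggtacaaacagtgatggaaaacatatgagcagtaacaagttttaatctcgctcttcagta
Omd, chr13:49582212-49582511, plus strand: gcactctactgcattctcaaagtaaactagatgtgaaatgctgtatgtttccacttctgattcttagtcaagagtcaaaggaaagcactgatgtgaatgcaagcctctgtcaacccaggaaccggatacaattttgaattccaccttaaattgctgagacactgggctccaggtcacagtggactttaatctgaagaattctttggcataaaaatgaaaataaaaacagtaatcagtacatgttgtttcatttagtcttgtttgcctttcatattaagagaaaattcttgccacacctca
Ogn, chr13:49607765-49608064, plus strand: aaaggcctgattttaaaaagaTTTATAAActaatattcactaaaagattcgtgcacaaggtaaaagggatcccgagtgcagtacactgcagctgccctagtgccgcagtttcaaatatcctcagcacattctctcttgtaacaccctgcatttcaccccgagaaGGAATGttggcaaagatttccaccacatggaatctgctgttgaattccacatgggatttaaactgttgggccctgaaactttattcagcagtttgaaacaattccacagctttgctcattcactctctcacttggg
Bgn, chrX:73483351-73483650, plus strand: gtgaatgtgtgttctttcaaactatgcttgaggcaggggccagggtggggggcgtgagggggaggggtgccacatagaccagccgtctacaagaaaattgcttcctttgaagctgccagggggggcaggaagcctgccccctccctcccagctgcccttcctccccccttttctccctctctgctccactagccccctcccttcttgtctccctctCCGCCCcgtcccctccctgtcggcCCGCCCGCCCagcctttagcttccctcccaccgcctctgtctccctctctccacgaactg

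The 3 windows on chromosome 13 were poor in G and C, with 31.0% in Aspn, 37.7% in Omd and 42.3% in Ogn, beside a median of 52.7% over all 32817 windows of this length. The windows of Prelp (55.3%) and Fmod (51.0%) were near that median, and the Bgn window held 63.7%. Of the windows not printed, that of Kera on chromosome 10 held 41.0%, less than that of Ogn, and those of Podn held 77.0% and 63.0%. TATAAA was in the Aspn window at position -207 and, reversed, at -178, and in the Ogn window in overlapping copies of both strands at -229 and -227. It is in 13.6% of all windows. GGAATG was in the Ogn window at -86 and is in 14.7% of all windows. The Bgn window had the reversed GC box at -34, -10 and -6, where the last pair overlap, and 35.6% of all windows hold a GC box. A Podn window had the GC box at -202 and -70. TGANTCA (7.81% of all windows) and the CArG box (1.63%) were in none of the SLRP windows. A match is a run of letters, and no binding was measured.

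Marker genes of other cell types differed between the same cultures. The summed level of 6 adipocyte markers was 1734 CPM in myosin IIA KO CAFs and 493 CPM in Cre- control CAFs, and 5 of the 6 were over 2-fold higher in the knockout, among them Plin1 with a log2 ratio of 3.10. All 6 smooth muscle markers were lower in the knockout, 4 of them by over 2-fold, and their sum was 3736 CPM in myosin IIA KO CAFs and 8646 CPM in Cre- control CAFs. The sum of 5 tenocyte markers was 10.7 CPM in myosin IIA KO CAFs and 35.2 CPM in Cre- control CAFs, and Tnmd alone had 84 counts against 581 counts. Of the 4 tenocyte markers measured 3 were over 2-fold lower and 1 higher, Mkx with a log2 ratio of 1.01 (0.34 to 1.74). Chondrocyte markers had a sum of 287 CPM in myosin IIA KO CAFs and 186 CPM in Cre- control CAFs with Acan and Col9a1 at 0 in both. Of the 3 measured, Sox9 (log2 ratio 0.66) and Col2a1 (0.60) were higher in the knockout and Matn3 was lower, with -0.69 (-1.22 to -0.18). Osteoblast markers had a sum of 69.0 CPM in myosin IIA KO CAFs and 57.6 CPM in Cre- control CAFs, with Ibsp at 0 in both. Of the osteoblast markers Sp7 was higher in the knockout, with 442 counts against 111 counts and a log2 ratio of 1.91 (1.61 to 2.23), and Runx2 had 1450 counts against 1373 counts. The part of these cell states in the SLRP ratios was not tested.

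**Figure D5:**
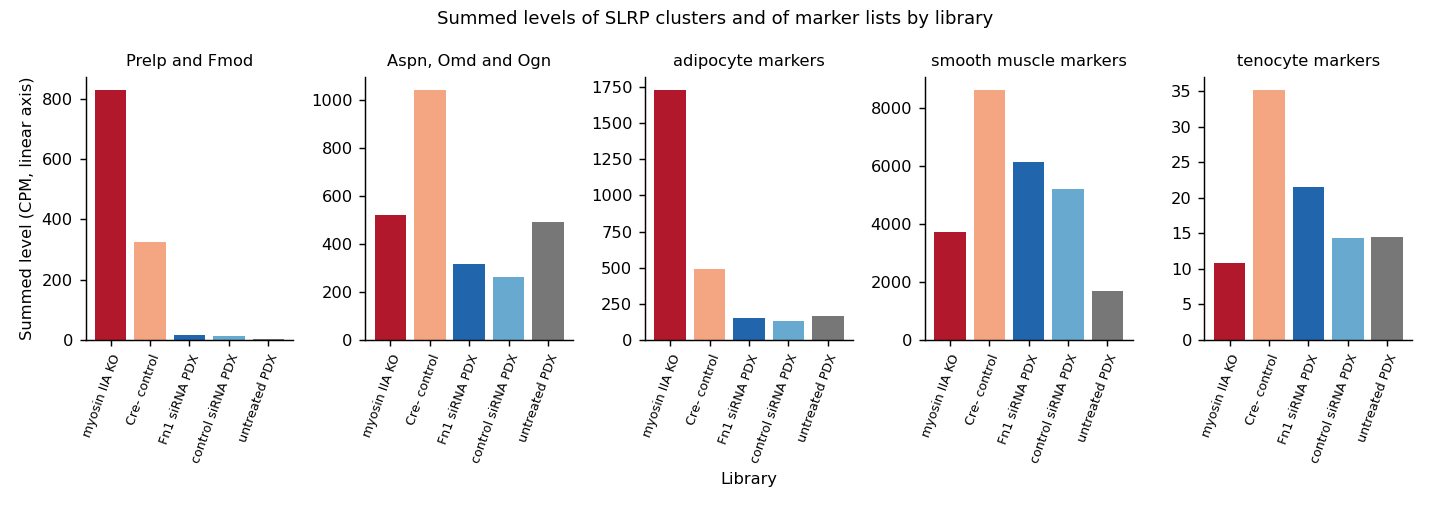
Summed level (y axis, CPM, linear, a separate scale in each panel) of the SLRP genes on chromosomes 1 and 13 and of 3 marker lists in 5 libraries (x axis), 1 bar per library. Against Cre- control CAFs, the knockout had a higher Prelp and Fmod sum (831 against 325 CPM) and adipocyte sum (1734 against 493 CPM), and lower chromosome 13, smooth muscle and tenocyte sums.

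Genes that act with SLRPs were counted in the same way, beside the same 5.02% of all genes. Of 12 genes of fibril collagens and their associates that SLRPs bind, 0 were past 2-fold in myosin IIA KO over Cre- control CAFs. Their log2 ratios had a median of -0.30, and the widest was that of Col11a1 with -0.63 (-0.85 to -0.41). Of 20 measured enzymes of chondroitin and dermatan sulfate synthesis 1 was past 2-fold, the sulfotransferase gene Chst13 with 10 counts in myosin IIA KO CAFs and 33 counts in Cre- control CAFs (log2 ratio -1.75, -2.99 to -0.75), and the median was -0.02. None of 5 measured keratan sulfate genes was past 2-fold. Of 13 measured receptors and ligands of decorin or biglycan 0 were past 2-fold, the widest being Ccn4, a secreted matricellular protein that biglycan binds, with -0.96 (-1.02 to -0.91). Of 7 measured proteases that cut SLRPs 0 were past 2-fold, and Adamts4 had -0.67 (-0.86 to -0.49). Among 4 other secreted proteoglycans at 1 CPM or more 1 was past 2-fold, and the median was 0.20. That gene was Prg4, the gene of lubricin, with 240 counts in myosin IIA KO CAFs and 75 counts in Cre- control CAFs, a log2 ratio of 1.59 (1.22 to 1.99). Hspg2, the highest of the 4 by CPM, had 0.08 (0.06 to 0.10).

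In Fn1 siRNA PDX CAFs no SLRP gene was past 2-fold, and all 7 that could be compared were slightly higher than in control siRNA PDX CAFs. The comparison asks what a culture with less Fn1 RNA, though not without it, transcribes differently. Of the 7 genes 0 were past 2-fold, against 0.834% of 12943 genes (0.494% higher and 0.34% lower). Podn had the widest log2 ratio, 0.73 (0.39 to 1.09), with 7.61 CPM in Fn1 siRNA PDX CAFs and 4.54 CPM in control siRNA PDX CAFs. Dcn followed with 0.48 (0.02 to 0.96), at 3.92 CPM in Fn1 siRNA PDX CAFs and 2.77 CPM in control siRNA PDX CAFs, from 87 and 72 counts in that order. Fmod had 0.41 (0.18 to 0.64), Omd 0.35 (0.02 to 0.69) and Aspn 0.35 (0.27 to 0.43). Ogn, at 199 CPM in Fn1 siRNA PDX CAFs and 171 CPM in control siRNA PDX CAFs, had 0.20 (0.14 to 0.26). Bgn, at 4127 CPM in Fn1 siRNA PDX CAFs and 3922 CPM in control siRNA PDX CAFs, had the narrowest difference, 0.06 (0.05 to 0.07).

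The 7 SLRP genes had a median log2 ratio of 0.35, and each of their intervals lay above 0 by counting error. Those of Dcn and Omd began at 0.02, and the share of all genes with an interval above 0 was not counted. By the ratio itself, whatever its interval, 6346 of all genes were above 0 and 6597 below, with a median of -0.0029. The collagen list stood on the same side, with 11 of 11 measured genes above 0, a median of 0.19 and Col11a1 widest at 0.71 (0.55 to 0.88). Of 21 measured chondroitin and dermatan sulfate genes 17 were above 0, with a median of 0.10, while the 4 other secreted proteoglycans measured were all below 0, with a median of -0.12. Smooth muscle markers summed to 6128 CPM in Fn1 siRNA PDX CAFs and 5227 CPM in control siRNA PDX CAFs, with 0 of 6 past 2-fold. Tenocyte markers summed to 21.6 CPM in Fn1 siRNA PDX CAFs and 14.4 CPM in control siRNA PDX CAFs. Of 3 tenocyte markers measured 2 were above 0 and 1 below, and Fibin was past 2-fold with 1.03 (0.76 to 1.31). The part of either list in the SLRP ratios was not tested. Prelp had 13 counts in Fn1 siRNA PDX CAFs and 17 counts in control siRNA PDX CAFs, Lum 1 count and 2 counts in that order, and neither was compared.

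The control siRNA culture had 4 SLRP genes more than 2-fold apart from the untreated culture, Fmod and Podn higher and Omd and Aspn lower. This comparison shares the control siRNA library with the previous one, holds the effect of transfection and of any other difference between these cultures, and carries no perturbation of a target. Of 7 genes compared 4 were past 2-fold, 2 higher and 2 lower, against 5.71% of 13125 genes (2.98% higher and 2.74% lower, or 391 and 359 genes). With library totals in place of TMM those genes were 321 higher and 457 lower, and 4 of 7 SLRP genes counted. Fmod was at 11.1 CPM in control siRNA PDX CAFs and 2.67 CPM in untreated PDX CAFs, a log2 ratio of 2.05 (1.66 to 2.47). Podn was at 4.54 CPM in control siRNA PDX CAFs and 1.40 CPM in untreated PDX CAFs, with 1.69 (1.13 to 2.30). Both genes were at low levels in these cultures.

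The chromosome 13 genes went the other way. Omd was at 5.62 CPM in control siRNA PDX CAFs and 17.9 CPM in untreated PDX CAFs, a log2 ratio of -1.67 (-1.95 to -1.40). Aspn was at 84.5 CPM in control siRNA PDX CAFs and 177 CPM in untreated PDX CAFs, with -1.07 (-1.14 to -0.99), and Ogn, at 171 CPM in control siRNA PDX CAFs and 297 CPM in untreated PDX CAFs, had -0.80 (-0.85 to -0.74). Bgn had 0.32 (0.31 to 0.34), and Dcn -0.34 with an interval that included 0 (-0.82 to 0.13). Higher Fmod and lower Aspn, Omd and Ogn were also the directions in myosin IIA KO over Cre- control CAFs. Under control siRNA 5 of 6 smooth muscle markers were over 2-fold higher, with a sum of 5227 CPM in control siRNA PDX CAFs and 1691 CPM in untreated PDX CAFs, while the tenocyte sum was 14.4 CPM in control siRNA PDX CAFs and 14.5 CPM in untreated PDX CAFs. Their part in the SLRP ratios was not tested.

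Cre- control CAFs and untreated PDX CAFs show how far cultures with intact Myh9 and Fn1 stand apart. Cre- control CAFs had higher levels than untreated PDX CAFs in all 9 SLRP genes compared, and 7 were past 2-fold, all of them higher, against 19.4% of 13577 genes (11% higher and 8.4% lower). Prelp (0.94 CPM) and Lum (0.39 CPM) were below 1 CPM in untreated PDX CAFs. They were compared only because they reached 1 CPM in Cre- control CAFs, so the filter fixed their direction. These cultures differ in mouse strain, host, tumor and tamoxifen, and in sex by the Xist and Ddx3y counts given below. The causes of their differences therefore cannot be told apart, and both libraries also serve in comparisons above. The median log2 ratio was 2.81, beside -0.03 over all genes. It is the ratio of Lum, which had 73 counts in Cre- control CAFs and 9 counts in untreated PDX CAFs. Prelp had the widest, 8.11 (7.54 to 8.81), or 275-fold, from 6851 counts in Cre- control CAFs and 22 counts in untreated PDX CAFs. Podn had 4.62 (4.14 to 5.19), Fmod 4.55 (4.19 to 4.94), Dcn 3.76 (3.45 to 4.11) and Lum 2.81 (1.87 to 4.06). On chromosome 13 the ratios were smaller, 1.62 (1.56 to 1.67) for Aspn, 1.10 (0.93 to 1.27) for Omd and 0.63 (0.59 to 0.68) for Ogn. Bgn, the X-linked member, had 0.96 (0.95 to 0.97). Xist, the transcript of the inactive X chromosome, had 0 counts in Cre- control CAFs and 11838 counts in untreated PDX CAFs, and the Y-linked Ddx3y had 1961 counts and 0 counts in that order. The part of the X chromosome in the Bgn ratio was not tested. Adipocyte markers summed to 493 CPM in Cre- control CAFs, against 161 CPM in untreated PDX CAFs, and smooth muscle markers to 8646 CPM and 1691 CPM in that order, and their part was not tested either.

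Members were also compared by the shape of their levels over the 5 libraries, as the distance between log2 CPM centred on the mean of each gene. Among the 7 members at 1 CPM or more in all libraries, Aspn and Omd were the nearest pair (0.497), followed by Fmod and Podn (1.03) and by Ogn and Aspn (1.10). With 5 libraries of 5 conditions these distances are descriptions. Of 8460 protein-coding genes at 10 CPM or more in every library, Mical3 (0.103), Mmp11 (0.131) and Hcn2 (0.138) were nearest to Bgn. Akr1c14 (0.0894), Pknox2 (0.249) and Hspa1b (0.28) were nearest to Ogn, and Plpp1 (0.466), Lrrc17 (0.559) and Synpo (0.624) to Aspn.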

How the data were processed

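The 5 libraries come from RNA of cultured mouse CAFs, 1 per condition. The authors deposited 1 table of raw gene counts, not normalized, made against mm10 per the submitters' processing notes. Aligner, counter, annotation release and strand setting were not given in the sources used here, which leaves overlapping and antisense genes uncertain. Lengths are those of the table and equal the GENCODE M21 exon union for all 10 members. TMM factors were computed from these counts with edgeR 4.0.16 (R 4.3.3), within a pair for ratios and over 5 libraries for CPM. Unnamed transcripts, 104 rows with 0.0422% to 0.0551% of counts, stayed in the totals.

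For ratios, 0.5 was added to the counts, scaled to library size, and a gene needed 1 CPM in either library. Called means past 2-fold, and no test between conditions was possible with 1 library each. Intervals of 95% were exact conditional binomial for ratios and exact Poisson for levels. Python 3.11.15, numpy 2.4.6, pandas 2.3.3, scipy 1.17.1 and matplotlib 3.10.9 were used, and the ratio code was tested on simulated data. Alternatives were DESeq2 1.42.0 size factors, other scalings, added counts, filters and thresholds, and untreated PDX CAFs as the control.

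The members and gene lists were chosen with earlier results of these data known, and 159 of 159 list symbols were found, 1 through an older symbol. Besides all members, the text names checks and markers, other SLRPs, up to 3 genes per list by ratio and up to 3 by level, cluster neighbours and the 3 nearest profiles of the 3 highest members. Not every gene under this rule is named.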

Additional observations from a re-analysis of the deposited data

How the results depend on the processing

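The counts of SLRP genes past 2-fold stayed within 1.5 times of those above under 4 other scalings, an added count of 5, a filter of 10 CPM or none, intervals wholly beyond 2-fold and protein-coding genes alone, in all 4 comparisons. With intervals wholly beyond 2-fold, Lum was no longer counted in myosin IIA KO over Cre- control, Aspn in control siRNA over untreated, and Omd in Cre- control over untreated. At 1.5-fold, 7 SLRP genes counted in myosin IIA KO over Cre- control (12.5% of all genes) and 1 in Fn1 siRNA over control siRNA (3.72% of all genes). At 10 CPM the median of the members was -0.29 in myosin IIA KO over Cre- control and -0.80 in control siRNA over untreated, beside -0.65 and -0.34 in that order. With 5 counts added the median in Cre- control over untreated was 2.36, beside 2.81. No sign of a single member changed with scaling, added counts or filter. Untreated PDX CAFs as the control turned signs round. For myosin IIA KO, log2 ratios became 3.11 for Dcn, 1.72 for Lum, 0.48 for Aspn and 0.28 for Omd, and the median 1.72. There 6 of 9 SLRP genes were past 2-fold, all higher, against 21.8% of 13734 genes. Prelp and Lum were compared there only because they reached 1 CPM in myosin IIA KO CAFs, so the filter fixed their direction. For Fn1 siRNA they became -0.58 for Ogn, -0.70 for Aspn and -1.30 for Omd. Of 7 SLRP genes 3 were past 2-fold, 2 higher and 1 lower, against 6.32% of 13114 genes. That control differs from the matched ones in more than the perturbation, as its own comparisons show. Over all genes the share past 2-fold was 27.2% without a filter and 2.40% at 10 CPM in myosin IIA KO over Cre- control, and 23.3% and 0.140%, in the same order, in Fn1 siRNA over control siRNA. No paired analysis was possible because each condition has 1 library, and leaving out replicates was not possible either. Low counts limit what can be said of Kera in all libraries and of Lum and Prelp in the PDX libraries.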

Other observations

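Other SLRP-like genes had their own pattern. Tsku (tsukushi) and Podnl1 were the highest of 8 in the PDX cultures, Tsku at 56.1 CPM in Fn1 siRNA PDX CAFs, 55.7 CPM in control siRNA PDX CAFs and 30.3 CPM in untreated PDX CAFs, and Podnl1 at 21.2, 19.8 and 26.8 CPM in that order. In the floxed mice Tsku was at 16.7 CPM in myosin IIA KO CAFs and 20.5 CPM in Cre- control CAFs, and Podnl1 at 6.94 CPM in myosin IIA KO CAFs and 7.996 CPM in Cre- control CAFs. Podnl1 and its class V relative Podn thus stood on opposite sides in Cre- control over untreated PDX CAFs, with log2 ratios of -1.75 (-1.98 to -1.52) for Podnl1 and 4.62 (4.14 to 5.19) for Podn. Ecm2 had 441 counts in Cre- control CAFs and 43 counts in untreated PDX CAFs. Optc, which lies near Prelp and Fmod, had 39 counts in Cre- control CAFs and 3 counts in untreated PDX CAFs, while in myosin IIA KO over Cre- control CAFs its log2 ratio was -0.96 (-1.81 to -0.17).

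An unnamed transcript between Prelp and Fmod on chromosome 1 had 260 counts in myosin IIA KO CAFs and 169 counts in Cre- control CAFs, a log2 ratio of 0.54 (0.26 to 0.83). It had 18 counts in Fn1 siRNA PDX CAFs, 27 counts in control siRNA PDX CAFs and 16 counts in untreated PDX CAFs, so that it was, like Prelp and Fmod, higher in Cre- control than in untreated PDX CAFs, with 3.22 (2.51 to 4.09). It was chosen for its place and has no annotation in the table.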
